A study of Mus musculus with 2 samples.

Results

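Granzymes A, K and M are granule proteases of cytotoxic lymphocytes with tryptase or Met-ase specificity, and their genes Gzma, Gzmk and Gzmm are described here across the lymphocytes of mouse tumours. The 3 genes were taken by symbol, not by level, from the 32285 genes of the count tables. Granzymes are serine proteases that cytotoxic T cells and natural killer (NK) cells store in granules and release, with the pore-forming protein perforin, onto a target cell. Granzymes A and K are tryptases, which cut after the basic residues arginine and lysine, and granzyme M is a Met-ase, which cuts after methionine and leucine. Granzyme B, by contrast, cuts after aspartate and activates caspases. Granzyme A is best known from NK cells and effector T cells, granzyme K from memory-type and tumour-infiltrating CD8 T cells, and granzyme M from innate-like lymphocytes.

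The cells were CD45+CD90.2+ immune cells sorted from tumours of C57BL/6 mice and profiled with 10x Genomics 3′ v3 chemistry, which counts molecules by unique molecular identifiers (UMIs). There were 2 libraries, 1 with the genotype label WT and 1 with the label Dapl1-KO, a knockout of Dapl1. The title of the series concerns CD8 T cell function and exhaustion. The tumour type, the number and sex of the animals, their age, any pooling and the deleted part of Dapl1 are not given in the sources used here. With 1 library per label no test between the labels was possible, so ratios between the libraries are given with intervals for counting error only and compare these 2 libraries.

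After filtering, 8992 cells labelled WT and 10098 labelled Dapl1-KO were kept, with medians of 7356 and 8463.5 UMIs per cell. The deposited tables shared 13132 barcodes, and the smaller copy of each was dropped where the larger held at least 2 times its UMIs. Dapl1 UMIs did not separate the labels: CD8 T cells held 2715 in the library labelled WT and 2649 in that labelled Dapl1-KO, or 40.5 and 29.0 CPM (counts per 1000000 UMIs of the group). Where the 3′ tags lie relative to the deleted part is not known, so this checks nothing about the knockout. The libraries also differed in sex-linked messages. Y-linked UMIs without Xist or Tsix marked 10.8% of the cells labelled WT and 69.5% of those labelled Dapl1-KO, and cells with Xist or Tsix and no Y-linked UMI made up 73.9% and 0.0891%. Genotype label and sex-linked messages therefore cannot be told apart in the comparison of whole libraries.

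Gzma and Gzmk are neighbours. In GRCm38, Gzma lies on the minus strand at chr13:113093825-113100981 in 5 exons and Gzmk on the same strand at chr13:113171608-113225908, with 70626 bases between them. Gzmm lies apart from both, on the plus strand at chr10:79689020-79695261, also in 5 exons, close to Cdc34 and Bsg. The last exons, where 3′ tags mostly fall, span chr13:113093827-113094050 for Gzma, chr13:113171638-113172035 for Gzmk and chr10:79694987-79695261 for Gzmm. A long Gzmk gene model overlaps Esm1, which lies on the opposite strand and held 376 UMIs labelled WT and 590 labelled Dapl1-KO over all kept cells.

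The 250 bases before the RefSeq start of each gene are shown because the first pair of genes shares a chromosomal neighbourhood yet differed in where it was expressed. They come from RefSeq on GRCm38.p6 and are written 5′ to 3′ along each gene's own strand, with capitals for matches to the motifs searched. The windows are chr13:113100982-113101231 on the minus strand for Gzma, chr13:113180966-113181215 on the minus strand for Gzmk and chr10:79688770-79689019 on the plus strand for Gzmm.
Gzma: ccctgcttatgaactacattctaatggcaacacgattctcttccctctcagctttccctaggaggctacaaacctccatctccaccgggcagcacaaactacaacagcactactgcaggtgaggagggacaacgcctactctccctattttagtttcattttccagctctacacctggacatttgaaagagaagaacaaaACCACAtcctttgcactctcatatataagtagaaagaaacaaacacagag
Gzmk: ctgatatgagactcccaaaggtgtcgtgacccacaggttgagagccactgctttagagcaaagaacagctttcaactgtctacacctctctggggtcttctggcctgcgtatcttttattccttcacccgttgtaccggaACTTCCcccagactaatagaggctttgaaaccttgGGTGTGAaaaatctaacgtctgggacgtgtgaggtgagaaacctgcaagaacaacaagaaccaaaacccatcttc
Gzmm: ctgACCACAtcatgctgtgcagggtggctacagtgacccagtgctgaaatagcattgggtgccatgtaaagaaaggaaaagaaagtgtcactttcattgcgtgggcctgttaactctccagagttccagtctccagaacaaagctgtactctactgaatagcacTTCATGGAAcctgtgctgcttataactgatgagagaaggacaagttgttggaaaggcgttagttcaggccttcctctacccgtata
The motifs were GGTGTGA (T-box factors such as Eomes and T-bet), TGTGGT (RUNX), GGAAGT (ETS), TTCNNNGAA (STAT) and TGANTCA (AP-1), read on both strands. The Gzma window held a RUNX match, ACCACA, that begins 50 bases before the start. The Gzmk window held an ETS match, ACTTCC, at 110 bases and a T-box match, GGTGTGA, at 75 bases. The Gzmm window held a RUNX match at 247 bases and a STAT match, TTCATGGAA, at 86 bases. No 2 of these matches overlap. Of 32851 promoter windows of this length, 3.33% held the T-box letters, 14.0% the RUNX, 19.7% the ETS, 7.02% the STAT and 6.75% the AP-1 letters. The matches are descriptions of sequence, and no binding was measured.

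Cells were sorted into groups by marker UMIs that included none of the 3 genes. CD8 T cells (4298 labelled WT and 5270 labelled Dapl1-KO) had a Cd3 gene and Cd8a or Cd8b1 without Cd4 or Foxp3, and were divided into 8 states by cell-cycle genes, Gzmd to Gzmg, naive or central memory genes, Pdcd1 (PD-1), Havcr2 (TIM-3) and Ly6c2. Double-negative innate-like T cells (842 and 897) had a Cd3 gene, no Cd4 or Cd8, and at least 2 of 6 innate genes. NK cells (455 and 593) had no Cd3 gene and at least 2 of 7 NK genes, and were divided into conventional NK cells (286 and 390), ILC1-like cells (102 and 67) and others. Trac, the constant part of the T cell receptor alpha chain, was not used in these gates. It stood at 445 and 524 CPM in CD8 T cells, 171 and 173 CPM in double-negative cells and 21.4 and 27.8 CPM in NK cells. Zbtb16, the defining regulator of NKT cells, reached only 7.76 and 4.48 CPM in the double-negative gate, which is therefore named by its rule and not as NKT cells.

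Gzma was a message of NK cells first, and next of double-negative innate-like T cells and of the Ly6c2 CD8 state. Lack of Pdcd1 alone did not mark high levels. The naive or central memory CD8 state, also gated without Pdcd1, held 74.1 CPM labelled WT. The NK cells with neither conventional nor ILC1-like markers (67 and 136 cells) held the most, 6927 CPM labelled WT and 9613 CPM labelled Dapl1-KO. Among the other groups of the library labelled WT its level was 5163 CPM in conventional NK cells, 1370.4 CPM in double-negative cells, 1243 CPM in ILC1-like cells, 690.1 CPM in PD-1 negative Ly6c2 CD8 T cells and 392 CPM in the remaining CD8 T cells outside the named states. No 2 of these 5 groups had overlapping counting intervals. The 6 remaining CD8 states, CD4, regulatory and gamma-delta or type 17 T cells and macrophage-like cells lay between 32.6 and 134 CPM. With the label Dapl1-KO conventional NK cells held 8602 CPM. They were followed by the Ly6c2 CD8 T cells with 2531 CPM and the double-negative cells with 2528 CPM, whose intervals overlapped, and by the other CD8 T cells with 2020 CPM. Regulatory T cells were lowest there, at 57.1 CPM. Ly6c2, the rule for that CD8 state, encodes a Ly6C surface protein of memory and effector CD8 T cells.

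Gzmk followed another order. It was highest in CD8 T cells and low in NK cells, in both libraries. In the library labelled WT it was 183 CPM in PD-1 CD8 T cells without TIM-3, 177 CPM in PD-1 TIM-3 CD8 T cells, 161 CPM in other CD8 T cells, 134 CPM in Ly6c2 CD8 T cells and 124 CPM in cycling CD8 T cells, and each neighbour in this order overlapped the next. In the library labelled Dapl1-KO the PD-1 states without and with TIM-3 again stood highest, at 192 and 182 CPM, and the Ly6c2 state came next with 175 CPM. Naive or central memory CD8 T cells held 10.7 and 23.9 CPM, double-negative cells 11.4 and 11.5 CPM, conventional NK cells 19.1 and 20.1 CPM and regulatory T cells 2.71 and 4.25 CPM.

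Gzmm was scarce throughout, with 241 UMIs in all kept cells labelled WT and 701 in those labelled Dapl1-KO. It was highest in naive or central memory CD8 T cells (9.34 CPM) and in Ly6c2 CD8 T cells (6.62 CPM) in the library labelled WT, where their intervals overlapped. With the label Dapl1-KO the Ly6c2 state held 49.7 CPM and the naive or central memory state 19.9 CPM, without overlap. Conventional NK cells held 3.92 and 6.14 CPM and double-negative cells 3.11 and 8.02 CPM, so in these tumours the message of the granzyme best known from innate-like cells was at a higher CPM in the naive or central memory CD8 state than in NK cells of the same library. CD8 T cells carried 74.3% and 71.3% of all Gzmm UMIs. They carried 81.3% and 85.2% of the Gzmk UMIs but only 24.7% and 33.1% of the Gzma UMIs, of which NK cells held 44.1% and 38.2%.

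**Figure D1:**
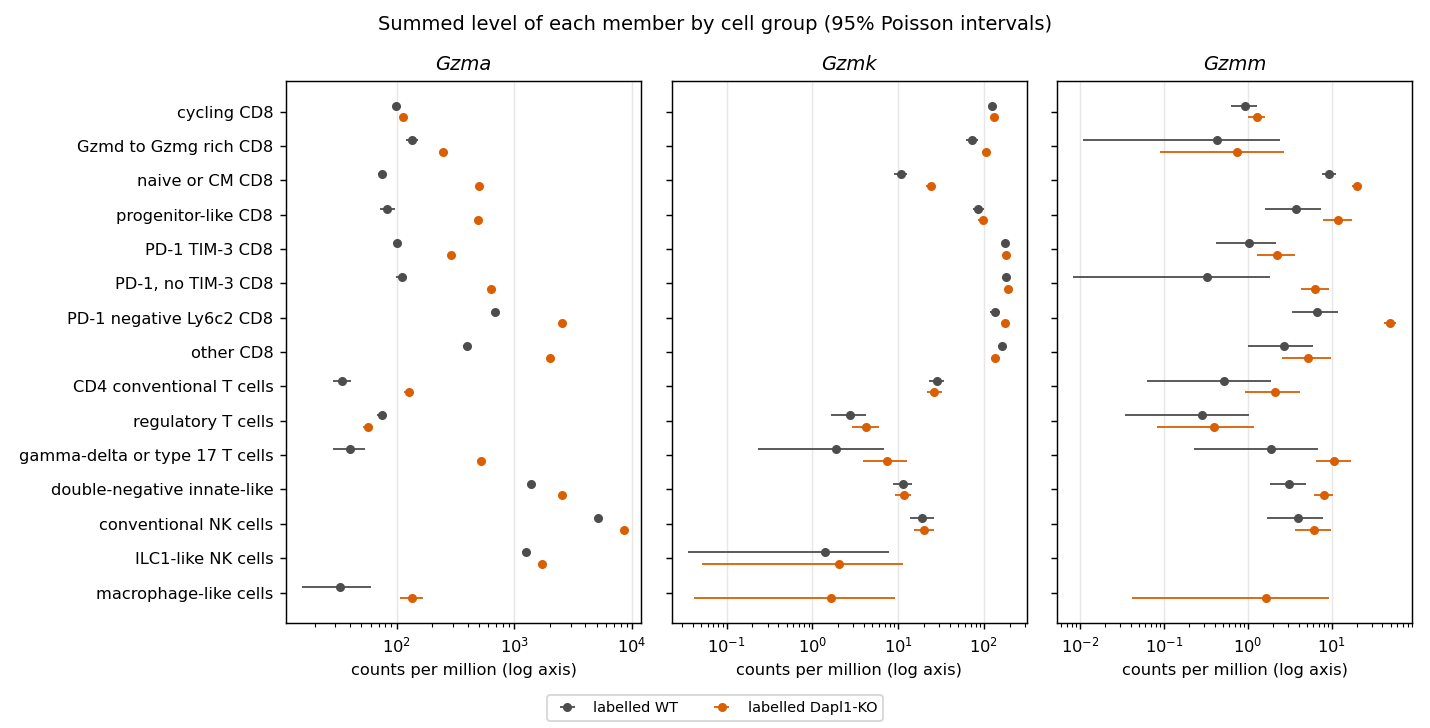
Level of Gzma, Gzmk and Gzmm (CPM, log axis) in each cell group, in the library labelled WT (grey) and that labelled Dapl1-KO (orange). Lines are 95% exact Poisson intervals for counting error, and groups with no UMI and the NK cells outside both subsets are not drawn. Of the groups drawn, Gzma is highest in conventional NK cells (5163 and 8602), Gzmk in the PD-1 CD8 states (177 to 192) and Gzmm in the Ly6c2 state labelled Dapl1-KO (49.7).

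Shares of cells gave a similar picture, with some changes of order, after each cell was thinned to 3000 UMIs. Thinning removes differences in depth and leaves out shallower cells. For Gzma labelled WT, ILC1-like cells stood above double-negative cells by share, with overlapping intervals, the reverse of their CPM. Ly6c2 CD8 T cells (23.2%) were level with double-negative cells. Gzma was found in 85.8% of conventional NK cells labelled WT and 93.5% of those labelled Dapl1-KO, in 30.6% and 36.9% of ILC1-like cells, in 23.5% and 41.1% of double-negative cells and in 8.21% and 19.1% of CD8 T cells. Gzmk was found in 21.9% and 28.3% of CD8 T cells and in 2.76% and 5.35% of NK cells. Gzmm was found in 1.10% and 2.64% of CD8 T cells. Before thinning, with medians of 9617 and 11236.5 UMIs, the shares of CD8 T cells were 16.9% and 34.9% for Gzma, 43.3% and 54.2% for Gzmk and 3.16% and 5.48% for Gzmm, and thinning left out 108 and 148 of them. Free RNA in droplets sets a floor for such shares. Regulatory T cells, whose median depth was 7139 and 7178.5 UMIs, had a Gzma UMI in 3.85% and 5.91% of cells, a Gzmk UMI in 0.874% and 1.33% and a Gzmm UMI in 0.175% and 0.295%. Gzma in CD4 conventional T cells (3.59% and 6.30%) lay within the counting error of that floor. So did CD8 T cells rich in Gzmd to Gzmg (7.41% and 8.57%) and gamma-delta or type 17 T cells (4.55% and 11.1%). With the label WT only, it held for naive or central memory (5.16%), progenitor-like (8.13%) and PD-1 CD8 T cells without TIM-3 (7.47%). In these groups Gzma is not separated from background by its share. In macrophage-like cells Gzma was found in 4.17% (exact 95% interval 0.105 to 21.1) and 3.77% (0.460 to 13.0).

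**Figure D2:**
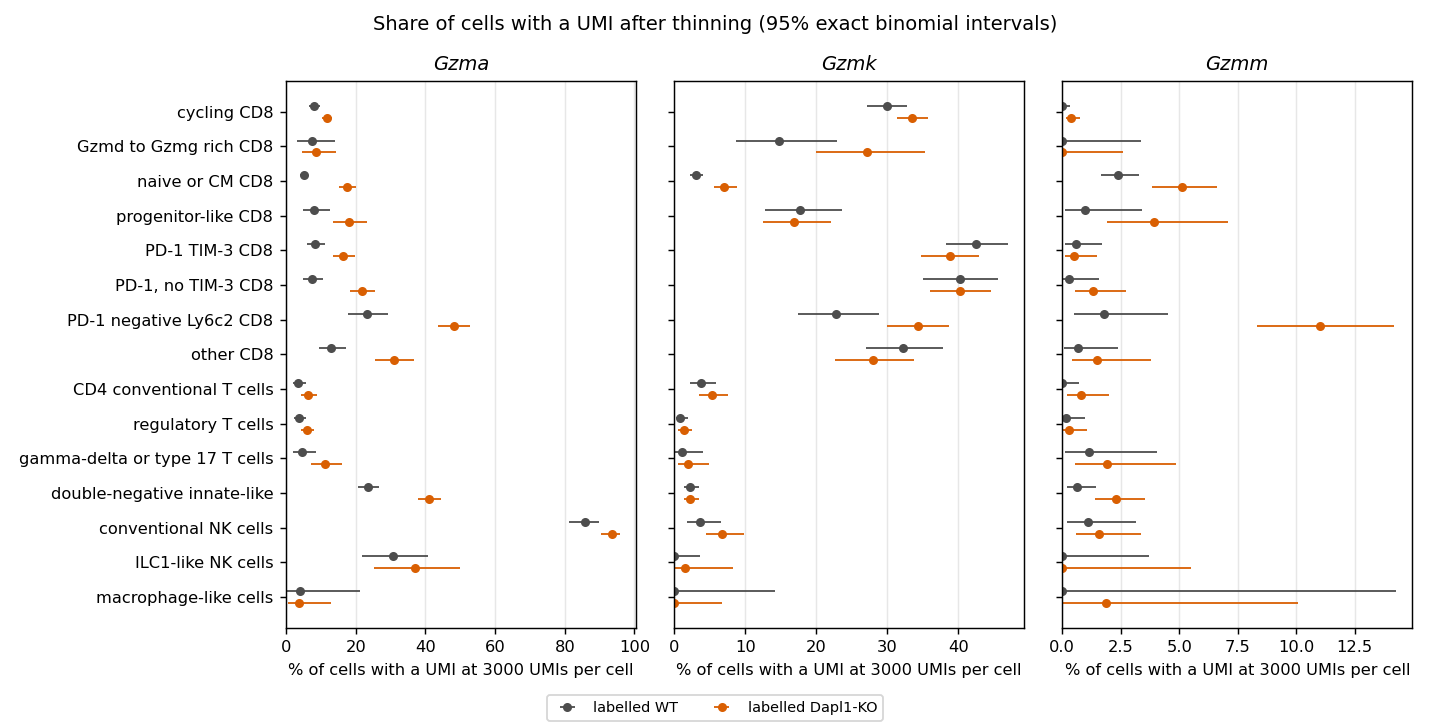
Share of cells (%) with at least 1 UMI of each gene after thinning every cell to 3000 UMIs, by cell group and library label (WT grey, Dapl1-KO orange), with 95% exact binomial intervals; the horizontal scales differ between panels. Gzma is found in 23.2% of Ly6c2 CD8 T cells labelled WT and 48.2% of those labelled Dapl1-KO, while Gzmk in PD-1 TIM-3 CD8 T cells is found in 42.5% and 38.8%.

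Between the libraries, Gzma stood apart from Gzmk. CD8 T cells held 8021 Gzma UMIs labelled WT and 29779 labelled Dapl1-KO, or 119.6 and 326 CPM, a log2 ratio of Dapl1-KO over WT of 1.45 (95% counting interval 1.41 to 1.48) and a 2.73-fold higher level. As a yardstick, 4624 genes were tested in CD8 T cells, each reaching 20 CPM with either label. Of these, 14.7% were called higher, meaning a log2 ratio past 0.32, with no condition on the counting interval. The median log2 ratio of all tested genes was 0.078. The intervals treat UMIs as independent. Gzma UMIs were concentrated in few cells, so the intervals are narrower than the real uncertainty: the 10% of CD8 T cells with the most Gzma held 96.3% of its UMIs labelled WT and 89.3% of those labelled Dapl1-KO.

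The ratio of Gzma was above 0 in all 8 CD8 states and past the limit in 7 of them. Naive or central memory CD8 T cells held 881 UMIs (74.1 CPM) labelled WT and 4851 (502 CPM) labelled Dapl1-KO, a log2 ratio of 2.76 (2.66 to 2.87), where 24.9% of genes were past the limit upward. Progenitor-like CD8 T cells, which carry Pdcd1 with Tcf7 or Slamf6, held 179 (83.0 CPM) and 1157 (493 CPM), a log2 ratio of 2.57 with 21.1% of genes past the limit. PD-1 CD8 T cells without TIM-3 held 334 (110.0 CPM) and 2905 (638 CPM), a log2 ratio of 2.54 with 21.3% of genes past it. With all cells counted these 3 states had the largest ratios of the 8. The thinned shares of their cells with Gzma labelled WT (5.16%, 8.13% and 7.47%) overlapped that of regulatory T cells (3.85%). The size of these ratios is therefore uncertain. By CPM the floor is unclear, as 322 of the 521 UMIs (74.3 CPM) of regulatory T cells labelled WT came from 1 cell. The share with at least 5 Gzma UMIs after thinning was 2.87% (1.39 to 5.22) in PD-1 CD8 T cells without TIM-3 labelled WT. It lay above that of regulatory T cells labelled WT, 0.35% (0.042 to 1.26). The intervals of naive or central memory cells (1.33%) and progenitor-like cells (1.44%) overlapped that of regulatory T cells.

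With all cells counted, the 3 smallest ratios came from PD-1 TIM-3, Gzmd to Gzmg rich and cycling CD8 T cells. PD-1 TIM-3 CD8 T cells, the state with the surface receptors of terminal exhaustion, held 675 Gzma UMIs (100.1 CPM) labelled WT and 2049 (288 CPM) labelled Dapl1-KO, a log2 ratio of 1.52 with 16.0% of genes past the limit. Cells rich in Gzmd to Gzmg held 310 (134 CPM) and 660 (246 CPM), a log2 ratio of 0.88 with 23.4% past it. This value rests on few cells: 1 cell held 235 of the 310 UMIs labelled WT. The log2 ratio was 2.55 without the top cell of each library and changed sign to -0.23 without doublet removal. Cycling CD8 T cells held 3626 (97.8 CPM) and 6822 (114 CPM), a log2 ratio of 0.22 (0.16 to 0.28), inside the limit that 8.51% of genes passed, and 0.35, past it, without the top cell of each library. The cycling cells made up 1052 of the CD8 T cells labelled WT and 1859 of those labelled Dapl1-KO and held most of the UMIs, so they pull down the ratio of the whole CD8 gate. Averaging over cells in place of UMIs gave a log2 ratio of 2.10 for Gzma in CD8 T cells, and thinning gave 2.16.

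The highest CD8 levels of Gzma were in the PD-1 negative Ly6c2 state. It held 1146 UMIs (690.1 CPM) labelled WT and 7478 (2531 CPM) labelled Dapl1-KO, a log2 ratio of 1.87 (1.78 to 1.97) where 26.6% of genes were past the limit upward. The share of its cells with Gzma after thinning was 23.2% and 48.2%. Other CD8 T cells held 870 (392 CPM) and 3857 (2020 CPM), a log2 ratio of 2.36 with 24.8% of genes past the limit. The Ly6c2 state was also a larger part of the CD8 gate in the library labelled Dapl1-KO, 523 of 5270 cells against 248 of 4298, and the naive or central memory state a smaller one, 1038 against 1450 cells.

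In NK and double-negative cells, where Gzma was highest or near it, the ratios were below those of 6 of the 8 CD8 states with all cells counted. NK cells held 14321 UMIs (4507 CPM) labelled WT and 34354 (8011 CPM) labelled Dapl1-KO, a log2 ratio of 0.83 (0.80 to 0.86) with 13.5% of genes past the limit upward. In conventional NK cells, where 18.3% of genes were past it, the log2 ratio was 0.74 (0.70 to 0.77), and in ILC1-like cells, with 27.3%, it was 0.48 (0.34 to 0.61). Double-negative innate-like cells held 7943 (1370.4 CPM) and 18609 (2528 CPM), a log2 ratio of 0.88 (0.85 to 0.92) with 21.1% of genes past the limit. CD4 conventional T cells held 133 (34.5 CPM) and 478 (126 CPM), a log2 ratio of 1.87 where 15.8% of genes were past it, though the share of cells with Gzma was at background in both libraries. In gamma-delta or type 17 T cells, 42 and 913 UMIs gave a log2 ratio of 3.69 where 30.5% of genes were past the limit. Few cells carried these counts in both libraries. In the library labelled WT 1 cell held 28 of the 42 UMIs, and in that labelled Dapl1-KO 1 cell held 300 of the 913.

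Regulatory T cells were the only one of 14 groups with a ratio below 0. They held 521 Gzma UMIs (74.3 CPM) labelled WT and 430 (57.1 CPM) labelled Dapl1-KO, a log2 ratio of -0.38 (-0.57 to -0.19) in a group where 14.4% of genes were past the limit downward. Here 322 of the UMIs labelled WT came from 1 cell and 121 of those labelled Dapl1-KO from another. Without these cells, 199 and 309 UMIs were left and the log2 ratio was 0.53. The negative direction in regulatory T cells therefore rests on the 1 cell labelled WT. Without it, 199 UMIs labelled WT stand against 430 labelled Dapl1-KO.

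**Figure D3:**
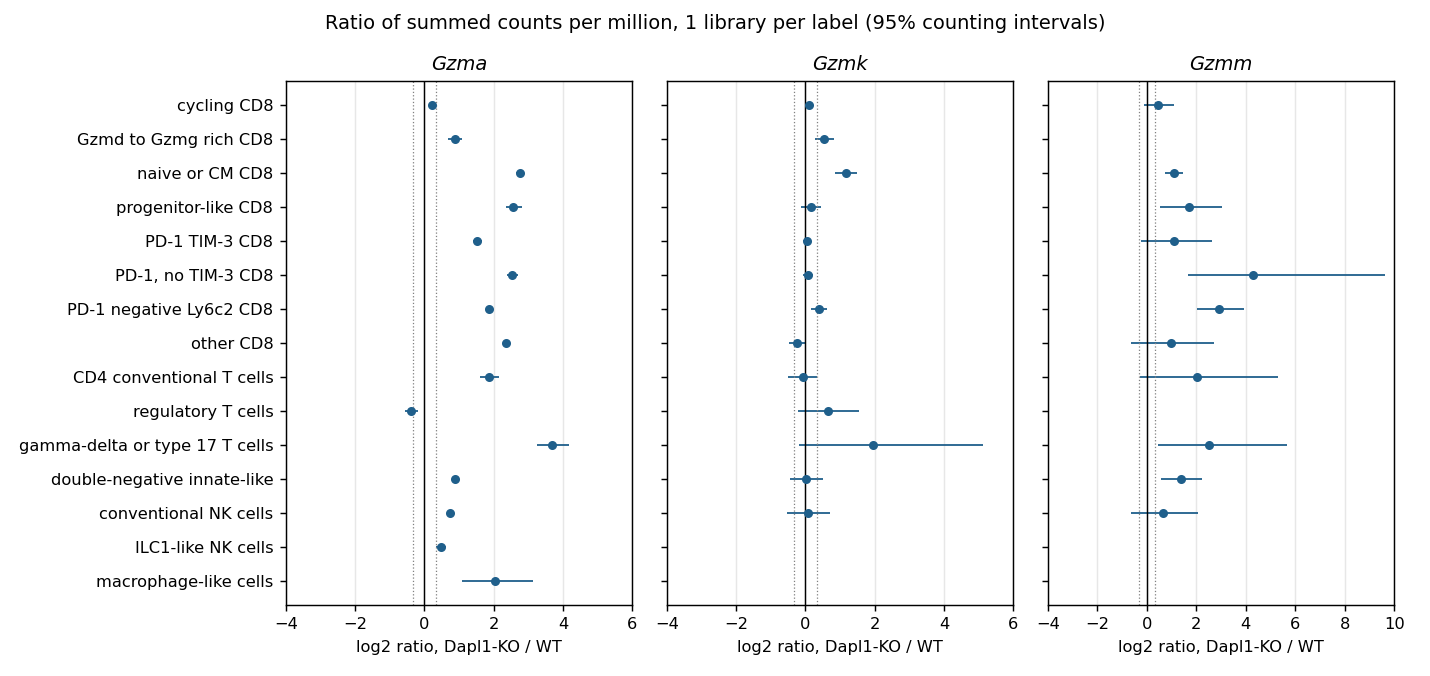
Log2 ratio of CPM, library labelled Dapl1-KO over library labelled WT, for each gene and cell group, with 95% counting intervals; dotted lines mark the limit of 0.32 on either side. Groups without a ratio are left empty and the horizontal scales differ between panels. Gzma lies right of 0 in all groups but regulatory T cells (-0.38), and Gzmk lies near 0 in the PD-1 states (0.044 and 0.071).

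The sex-linked messages split the library labelled WT into cells of different Gzma level. Within that library, 630 CD8 T cells with Y-linked UMIs held 21.3 CPM of Gzma and 3067 with Xist or Tsix held 145 CPM, a log2 ratio of 2.76 (2.55 to 2.98) or 6.80-fold. By CPM, this difference inside the library labelled WT was larger than the 2.73-fold difference between the labels. By share of cells with Gzma before thinning it was not. Those shares were 10% with Y-linked UMIs and 18.7% with Xist or Tsix inside that library. They were 16.9% and 34.9% for all CD8 T cells labelled WT and Dapl1-KO. The 3895 CD8 T cells with Y-linked UMIs labelled Dapl1-KO held 260.3 CPM. They were 12.2-fold above the cells with Y-linked UMIs labelled WT and 1.80-fold above the cells with Xist or Tsix. By CPM, the cells with Y-linked UMIs labelled WT were the lowest in every population split this way: 17.3 against 119 and 115 CPM in cycling CD8 T cells, 24.8 against 101 and 488 CPM in naive or central memory cells, 121 against 795 and 2083 CPM in the Ly6c2 state, 425 against 1518 and 2799 CPM in double-negative cells and 2434 against 4685 and 7485 CPM in NK cells. In progenitor-like cells, at 57.7 against 84.9 and 449 CPM, the interval of the first difference held 0 (log2 ratio 0.56, -0.14 to 1.33). The shares of cells with Gzma did not all follow: they were 37.8% with Y-linked UMIs and 25.9% with Xist or Tsix in double-negative cells labelled WT, and 88.0% and 75.7% in NK cells.

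In cycling CD8 T cells the log2 ratio of cells labelled Dapl1-KO with Y-linked UMIs over cells labelled WT with Xist or Tsix was -0.056 (-0.12 to 0.0044). Some of these groups are small, with 19 Ly6c2 CD8 T cells, 37 double-negative cells and 25 NK cells for the Y-linked cells labelled WT. Gzmk in CD8 T cells differed less between the same 3 groups, at 97.3, 116 and 128 CPM. The labels do not tell whether the groups are separate animals, and their part in the differences between the labels was not tested.

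**Figure D4:**
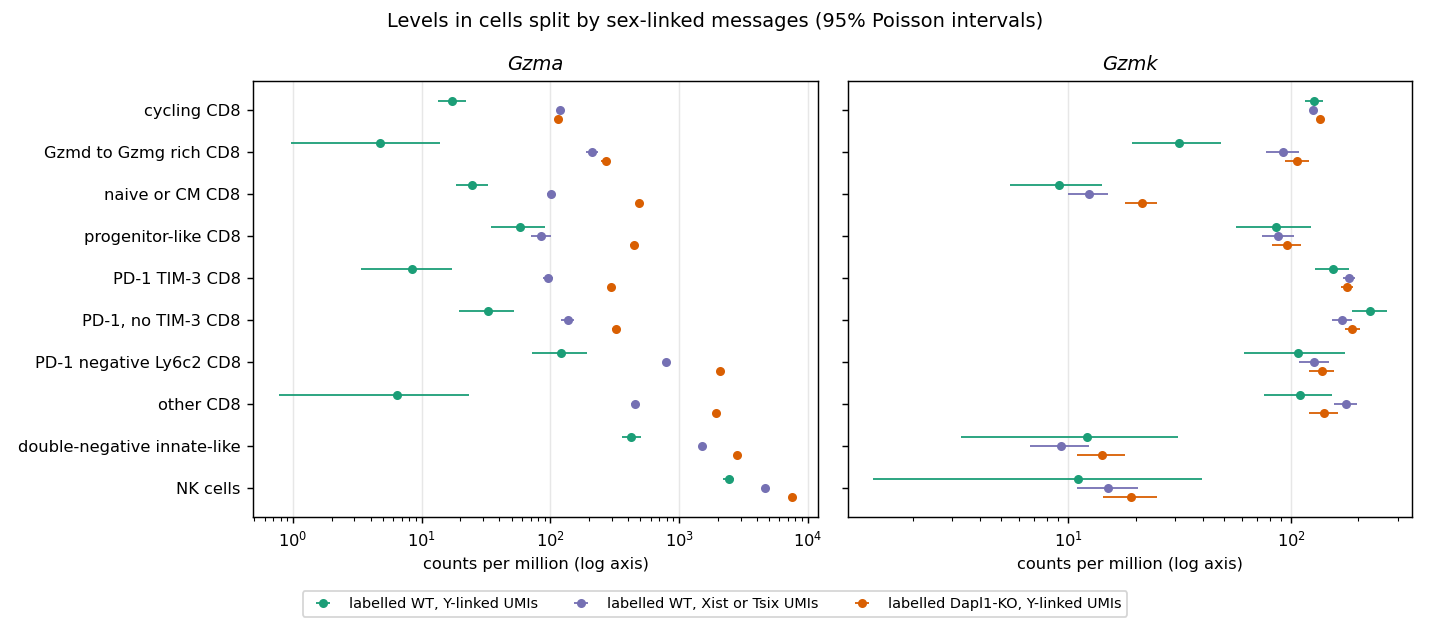
Gzma and Gzmk levels (CPM, log axes) in cells labelled WT with Y-linked UMIs (green), cells labelled WT with Xist or Tsix UMIs (purple) and cells labelled Dapl1-KO with Y-linked UMIs (orange), with 95% exact Poisson intervals. For Gzma in CD8 states and innate cells the green points lie left of the other colours, as in NK cells (2434, 4685 and 7485), while Gzmk points lie close together in cycling CD8 T cells.

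Summed messages of NK genes were also higher in the CD8 gate labelled Dapl1-KO, mostly through Klre1, and not in step with Gzma by state. The summed level of 7 NK genes (Ncr1, Klrb1c, Tyrobp, Eomes, Klre1, Klra8 and Klra4) was 142 CPM in CD8 T cells labelled WT and 238 CPM in those labelled Dapl1-KO, against 3339 and 4053 CPM in NK cells. It was 145 and 296 CPM in the naive or central memory state, 200.2 and 569 CPM in other CD8 T cells and 249 and 269 CPM in the Ly6c2 state, where Gzma differed far more. In cycling cells, where Gzma differed little, it was 135 and 209 CPM. Among the 7 genes Klre1 went from 52.3 to 141 CPM in CD8 T cells and Eomes from 57.5 to 45.9 CPM. Klre1 was 66.2 and 136 CPM in the Ly6c2 state and 51.4 and 131 CPM in other CD8 T cells. The sum by state therefore does not stand for each of its genes. None of the 7 was at 0 in the CD8 gate. Among CD8 T cells with no UMI of Ncr1, Klrb1c, Tyrobp, Klra8 or Klra4, the log2 ratio of Gzma was 1.70. In such cells it was 2.58 in the naive or central memory state, 2.10 in the Ly6c2 state and 2.60 in other CD8 T cells, and it was -0.57 in the state rich in Gzmd to Gzmg.

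CD8 T cells with much Gzma were described separately, as cells with at least 5 Gzma UMIs after thinning. This is a range and not a cell type. In the library labelled WT 102 CD8 T cells (2.43%) passed it and in that labelled Dapl1-KO 429 (8.38%), of which 10 and 27 stood exactly at 5 UMIs. Ly6c2 CD8 T cells passed it in 13.8% and 31.3% of cells, and naive or central memory cells in 1.33% and 7.35%. The high cells more often held Gzmk (49.0% against 21.3% of other CD8 T cells labelled WT, 44.1% against 26.9% labelled Dapl1-KO) and Gzmb (84.3% against 44.2%, and 86.2% against 65.2%). They less often held Pdcd1, in 16.7% against 30.0% and 21.2% against 39.6%. Klrd1, which encodes the CD94 receptor chain of NK and T cells, was found in 73.5% against 42.6% and in 65.5% against 52.5%.

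Most of these cells held Trac, which no gate used. Trac was found in 68.6% of the high CD8 T cells labelled WT and 73.7% of those labelled Dapl1-KO, and in 65.0% and 76.2% of the others. Cd8b1, itself a gate gene, was found in 65.7% and 74.8% of the high cells, which the gate makes likely. Tyrobp, a signalling adaptor of NK and myeloid cells, was found in 18.6% against 2.72% and in 20.05% against 3.79%. In the Ly6c2 state the high cells held Tyrobp in 9.68% and 5.41% of cells and Trac in 74.2% and 83.1%. In the naive or central memory state, with 19 and 75 high cells, they held Tyrobp in 36.8% and 50.7%. The shares of its other cells were 3.89% and 7.09%, so the high cells of that gate carried Tyrobp far more often.

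The double-negative gate was mixed in the same respect. Its 123 and 263 high cells held Tyrobp, itself a gate gene, in 93.5% and 97.0%, against 33.7% and 41.0% of the rest. They held Ncr1, the NK receptor NKp46, in 38.2% and 35.0% against 9.24% and 9.29%. Trac was found in only 8.94% and 11.8% of them, against 39.7% and 44.8% of the rest. Among double-negative cells with a Trac UMI (418 and 450 cells), the log2 ratio of Gzma was 0.45. With at least 2 UMIs over the lineage genes (555 and 552 cells) it was 0.25. How many of the high cells of this gate are NK cells with stray Cd3 UMIs was not tested.

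Gzmk differed little between the libraries in the PD-1 states, where it was highest. CD8 T cells held 7390 Gzmk UMIs (110.2 CPM) labelled WT and 11583 (127 CPM) labelled Dapl1-KO, a log2 ratio of 0.20 (0.16 to 0.25) and within the limit of 0.32. It was past the limit as a mean over cells (0.39), after thinning (0.42) and in cells with Y-linked UMIs (0.40). PD-1 TIM-3 CD8 T cells held 1193 (177 CPM) and 1299 (182 CPM), a log2 ratio of 0.044 (-0.070 to 0.16). PD-1 CD8 T cells without TIM-3 held 554 (183 CPM) and 873 (192 CPM), a log2 ratio of 0.071 (-0.085 to 0.23). The upper bounds of both intervals lie below the limit, for counting error only. Cycling CD8 T cells held 4582 (124 CPM) and 7894 (132 CPM), a log2 ratio of 0.090 (0.038 to 0.14).

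The ratios of Gzmk were larger in 3 other CD8 states. Naive or central memory CD8 T cells held 127 UMIs (10.7 CPM) labelled WT and 231 (23.9 CPM) labelled Dapl1-KO, a log2 ratio of 1.16 (0.84 to 1.49). Cells rich in Gzmd to Gzmg held 168 and 284 UMIs, a log2 ratio of 0.54 (0.26 to 0.83), and Ly6c2 CD8 T cells 222 and 516, a log2 ratio of 0.39 (0.16 to 0.62). These are the 3 of 8 CD8 states where Gzmk was past the limit upward. Other CD8 T cells held 358 and 260 UMIs (161 and 136 CPM), a log2 ratio of -0.25 (-0.48 to -0.011). In NK cells 45 and 74 UMIs gave 0.29 (-0.27 to 0.85) and in double-negative cells 66 and 85 gave 0.020 (-0.46 to 0.51), intervals too wide to place Gzmk on either side. Unlike Gzma, Gzmk was spread over many cells, and the 10% of CD8 T cells with the most Gzmk held 55.3% and 47.4% of its UMIs.

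Cells with Gzmk held Gzma more often than cells without Gzmk. After thinning, Gzma was found in 14.1% of the 919 CD8 T cells labelled WT with Gzmk and in 6.54% of those without it. The shares labelled Dapl1-KO were 25.2% of 1450 cells and 16.6%. The ratio of these shares was largest in the naive or central memory state among the states given here, 22.7% against 4.61% and 48.6% against 15.2%, where both messages were rare. In the Ly6c2 state the shares were 41.2% against 17.9% and 59.3% against 42.4%, and in PD-1 TIM-3 cells 11.4% against 6.08% and 18.1% against 15.4%. Still, most CD8 T cells with Gzmk held no Gzma UMI at this depth. All thinned NK cells with Gzmk also held Gzma, 12 of 12 and 31 of 31.

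Among CD8 T cells Gzmk went with Pdcd1 and Gzmb and away from Tcf7. Gzmk was found in 35.9% of CD8 T cells labelled WT with Pdcd1 and 16.0% of those without it, and in 35.6% and 23.9% labelled Dapl1-KO. With and without Gzmb it was found in 34.1% and 11.9%, and in 35.3% and 14.2%. It was scarcer in cells with Tcf7, a factor of naive and memory T cells: 4.78% against 27.2%, and 9.17% against 31.5%. For Gzma the shares with and without Pdcd1 were close in the library labelled WT, at 8.29% and 8.18%. With the label Dapl1-KO the shares were 15.1% and 21.5%. Gzma went with Klrg1, a receptor of effector cells, in 21.0% against 7.96% and 39.9% against 18.4%. Marker UMIs are more often found in cells with more RNA, and thinning evens only the total.

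**Figure D5:**
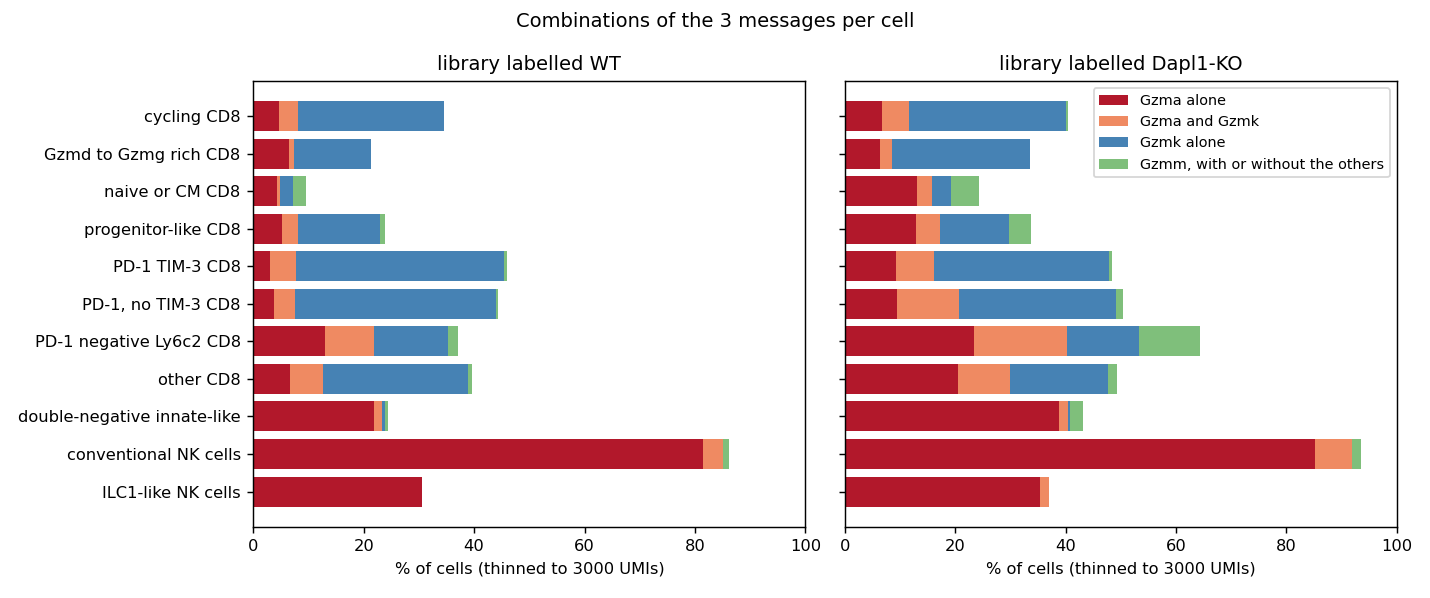
Share of cells (%, thinned to 3000 UMIs) with Gzma alone (red), Gzma and Gzmk (orange), Gzmk alone (blue) or Gzmm with or without the others (green), by cell group, left for the library labelled WT and right for that labelled Dapl1-KO. Gzmk alone fills most of the bar in PD-1 TIM-3 CD8 T cells (37.7% and 31.7%) and Gzma alone in conventional NK cells (81.5% and 85.1%).

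The states that held most Gzmm had more of it with the label Dapl1-KO. CD8 T cells held 179 Gzmm UMIs labelled WT and 500 labelled Dapl1-KO, or 2.67 and 5.48 CPM, a log2 ratio of 1.04 (0.79 to 1.29). Naive or central memory cells held 111 and 192 UMIs, a log2 ratio of 1.09 (0.75 to 1.44). Ly6c2 CD8 T cells held 11 and 147, a log2 ratio of 2.91 (2.03 to 3.94), or 7.51-fold, and 1.79% and 10.99% of them had a Gzmm UMI after thinning. The Ly6c2 state carried 4.56% of all Gzmm UMIs labelled WT and 21.0% of those labelled Dapl1-KO. Progenitor-like cells held 8 and 28 UMIs, a log2 ratio of 1.69 (0.51 to 3.03), and PD-1 cells without TIM-3 held 1 and 29, a log2 ratio of 4.27 (1.68 to 9.62).

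In the remaining groups Gzmm was close to the limit of detection. PD-1 TIM-3 cells held 7 and 16 UMIs with a log2 ratio of 1.11 (-0.25 to 2.64), and NK cells held 8 and 22 with 1.03 (-0.19 to 2.40). Double-negative cells held 18 and 59, a log2 ratio of 1.37 (0.59 to 2.22). ILC1-like cells held none in either library. Gzmm stayed below the 20 CPM that entered a gene into the yardstick, except in the Ly6c2 state labelled Dapl1-KO, where 26.6% of genes were past the limit upward. Gzmm was scarce among cells with Pdcd1, in 0.242% against 1.46% and 0.821% against 3.75% of CD8 T cells without it. Among the 46 and 135 CD8 T cells with Gzmm, Gzma was found in 23.9% and 51.1%, against 8.04% and 18.2% of those without Gzmm.

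Genes with the most similar pattern were ranked by Pearson r of log2(CPM + 1) over 30 points, 15 groups in each of 2 libraries, among 3778 genes. The points share libraries and some share cells of a lineage, and r is given as a description only. Nearest to Gzma were Styk1 (0.83), Spry2 (0.81), Epsti1 (0.81), Klre1 (0.80) and Otulin (0.80), of which Klre1, an NK receptor, is also an NK gate gene. Styk1, which encodes an atypical receptor kinase, was 61.8 and 75.4 CPM in conventional NK cells. Nearest to Gzmk were Rpa2 (0.87), Rgs16 (0.85), Cblb (0.84), Grk6 (0.84) and Nmrk1 (0.83). Rgs16, a regulator of G protein signalling, stood at 377 and 395 CPM in PD-1 TIM-3 cells and 21.2 and 36.3 CPM in naive or central memory cells. Nearest to Gzmm were Klra1 (0.72), Epsti1 (0.72), Klra7 (0.71), Ppp2r5a (0.69) and Dnajc15 (0.69), with Klra1 and Klra7 encoding Ly49 receptors and Klra7 also a gate gene. Among the members, r was 0.12 for Gzma with Gzmk, 0.49 for Gzma with Gzmm and 0.32 for Gzmk with Gzmm. Gzmk tracked Gzmb more closely (0.65) than Gzma did (0.35), and Gzma tracked Eomes (0.73), itself an NK gate gene.

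The other granzymes did not share one direction. Of the granzyme B cluster, the aspartate-cutting granzyme B and its relatives on another chromosome, 6 of 7 genes were measured at 20 CPM or more in CD8 T cells. Past the limit, 2 were higher and 1 was lower in the library labelled Dapl1-KO, where 14.7% and 6.81% of all tested genes were. Gzmb was 1037 CPM labelled WT and 1777 CPM labelled Dapl1-KO (log2 ratio 0.78), Gzmc 566 and 736 CPM (0.38), Gzmf 2099 and 1192 CPM (-0.82) and Gzmd 445 and 369 CPM (-0.27). In NK cells 5 of 6 measured genes of this cluster were higher and none lower, where 13.5% and 11.9% of genes were. In double-negative cells 5 of 6 were lower and none higher, where 12.6% and 21.1% were. Gzma was higher in all 3 populations, but in double-negative cells its log2 ratio fell inside the limit, at 0.25, with at least 2 lineage UMIs. Gzmf was 25.5 and 92.3 CPM in NK cells and 125 and 20.2 CPM in double-negative cells.

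Granule machinery, the genes that load and release granules, was measured for 16 of 17 genes in CD8 T cells, of which 6 were higher, none lower and 10 within the limit, against 14.7% and 6.81% of all tested genes. In double-negative cells 3 of 14 were higher and 1 lower, where 21.1% and 12.6% of all tested genes were. The 3 of 14 are near that 21.1%. In NK cells 4 of 16 were higher and 2 lower, where 13.5% and 11.9% of genes were, and the 2 of 16 are near that 11.9%. Prf1, perforin, was 213 and 412 CPM (log2 ratio 0.95), Cst7, the cystatin that restrains granule cathepsins, 150.4 and 234 CPM (0.64), Nkg7, a granule membrane protein needed for release, 1452 and 2166 CPM (0.58) and Ctsw, cathepsin W, 129 and 171 CPM (0.40). The list's median log2 ratio was 0.17 against 0.078 for all tested genes. Of 8 protective serpins and inhibitors, 6 were measured in CD8 T cells, and 2 were higher and none lower, against 14.7% and 6.81%. In double-negative cells 3 of 6 were higher and 3 lower, and in NK cells 2 and 2, against the shares of these populations given above. Serpinb9b was 75.1 and 125 CPM (0.74) and Cst3, cystatin C, 176 and 250.01 CPM (0.51).

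Granzyme A substrates and the SET complex, a complex that granzyme A cleaves, made a list of 9 genes. In CD8 T cells 8 were measured, with 3 higher and none lower, against 14.7% and 6.81% of all tested genes. In double-negative cells 4 of 8 were higher and in NK cells 2 of 7, with none lower. Of all tested genes, 21.1% were higher and 12.6% lower in double-negative cells, and 13.5% and 11.9% in NK cells. Lmnb1 and Lmna, the nuclear lamins, were 121 and 168 CPM (0.48) and 25.5 and 35.6 CPM (0.48), and Hmgb2 was 1410 and 1777 CPM (0.33). Of the protease-activated receptors, which can sense tryptases outside the cell, only F2r was measured, at 23.6 and 28.8 CPM (0.29), within the limit. Of 18 regulators of cytotoxic genes, 15 were measured in CD8 T cells, with 2 higher and 3 lower. The 2 of 15 are near the 14.7% of all tested genes called higher. In double-negative cells 3 of 14 were higher and 3 lower, and in NK cells 2 of 16 and 2, against the shares of these populations given above. Klf2 was 353 and 197 CPM (-0.84), Tcf7 67.4 and 39.6 CPM (-0.77), Zeb2 41.6 and 54.2 CPM (0.38) and Stat4 85.0 and 109 CPM (0.36). Eomes, the T-box factor of cytotoxic lymphocytes, was 57.5 and 45.9 CPM (-0.33), opposite in sign to Gzma. Of 9 cytokine receptors, 6 were measured in CD8 T cells, with 1 higher and 2 lower. In double-negative cells it was also 1 and 2, and in NK cells 2 higher and 1 lower. The shares of all tested genes given above apply to these counts too. Il2rb, the receptor chain shared by interleukins 2 and 15, was 257 and 409 CPM (0.67), Il18r1 54.1 and 35.4 CPM (-0.61) and Il18rap 36.6 and 25.4 CPM (-0.52). The naive or central memory state made up 33.7% of CD8 T cells labelled WT and 19.7% of those labelled Dapl1-KO, and its part in these list values was not tested.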

How the data were processed

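The authors deposited 1 matrix of raw UMI counts per library with its genes and barcodes. Per the submitters' processing notes, Cell Ranger 5.0.0 and the builds mm10 and GRCm38 were used; the parameters are not given in the sources used here. The matrices held 16673 barcodes labelled WT and 19662 labelled Dapl1-KO, with 154408101 and 206322042 UMIs.

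Of each barcode found in both libraries the smaller copy was dropped (5983 and 7128), and both copies where neither held 2 times the other's UMIs (21). Barcodes under 500 genes or over 10% mitochondrial counts were left out. Doublets were removed by the highest Scrublet scores in scanpy 1.11.5, at 0.8% per 1000 cells (8.85% and 9.48%). Gates used marker UMIs. Levels were summed counts over the group's total, with exact Poisson intervals. Ratios carried conditional binomial intervals, shares Clopper-Pearson intervals, all at 95% and covering counting error only. No ratio was given where both counts were at or under 3. The yardstick held genes reaching 20 CPM with either label, called at a log2 ratio past 0.32. On simulated counts of 4431 genes for CD8 T cells, 95.6% of the intervals held the true ratio. The counts were drawn as independent, as the intervals assume, so this checks the calculation only. It does not cover UMIs concentrated in few cells, as for Gzma.

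Named were the 3 members, at most 4 genes of each list with the largest ratios in CD8 T cells and the 5 genes nearest each member in pattern. Eomes, Gzmb and a few marker genes were named beyond this rule after their values were seen. The members and lists were chosen with earlier results of these data known. Leaving out cells with Ncr1, Klrb1c, Tyrobp, Klra8 or Klra4 was an alternative chosen after seeing the data. So were leaving out double-negative cells without Trac and the top Gzma cell of each group. Gene positions came from GENCODE on GRCm38, and numpy 2.4.6, scipy 1.17.1 and pandas 2.3.3 were used.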

Additional observations from a re-analysis of the deposited data

Results flagged for a closer look

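The log2 ratio of Gzma in regulatory T cells, -0.379, had the opposite sign to the other 13 groups with a ratio. The difference between regulatory T cells and the other groups was not tested. The value became 0.53 without the cell with the most Gzma UMIs in each library.

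The log2 ratio of Gzmk in other CD8 T cells, -0.245, had an interval below 0 (-0.48 to -0.011), while 4 of the 8 CD8 states had an interval above 0. This difference was not tested either, and the upper bound lies close to 0.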

How the results depend on the processing

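No paired analysis was possible because each label has 1 library. For Gzma, the log2 ratio in CD8 T cells was 1.45 as reported. It was 1.20 with all barcodes kept, 1.23 without doublet removal, 2.10 as a mean over cells and 2.16 after thinning. In cells with Y-linked UMIs it was 3.61, and without the top Gzma cell of each library 1.52. In cells with no UMI of Ncr1, Klrb1c, Tyrobp, Klra8 or Klra4 it was 1.70. Klre1 and Eomes were not used for that choice. In double-negative cells, 0.88 as reported, it was 0.82 with all barcodes, 0.96 under stricter cell filters, 0.25 with 2 lineage UMIs, 1.39 as a mean over cells, 1.40 after thinning, 2.72 in cells with Y-linked UMIs, 0.45 in cells with Trac and 0.997 without the top cells. In NK cells, 0.83 as reported, it was 0.72 with all barcodes and 1.62 in cells with Y-linked UMIs. In these 3 populations all 26 alternative values of Gzma were above 0.

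For Gzmk in CD8 T cells, 0.20 as reported, the value was 0.39 as a mean over cells and 0.42 after thinning. It was 0.40 in cells with Y-linked UMIs and 0.26 in cells with no UMI of Ncr1, Klrb1c, Tyrobp, Klra8 or Klra4. In double-negative cells it was -0.94 with 2 lineage UMIs and -0.87 in cells with Trac. For Gzmm in CD8 T cells, 1.04 as reported, it was 1.52 as a mean over cells and 1.61 after thinning. Among cells with Y-linked UMIs Gzmm reversed to -0.50 in NK cells and -0.38 in conventional NK cells. Gzma reversed in the state rich in Gzmd to Gzmg, to -0.23 without doublet removal and -0.57 in cells with none of those NK genes. It also reversed in regulatory T cells, to 0.53. Beyond the choices that change which cells or weights enter, the causes were not tested. Gzmm counts are low, which widens its intervals. Animals, sex and label cannot be told apart with 1 library each.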
